A study of Arabidopsis thaliana with 6 samples.

Results

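The plastid pyruvate dehydrogenase (PDH) complex of *Arabidopsis thaliana* was followed through its 7 subunit genes, out of 24509 transcripts with at least 1 read and 18241 that passed a filter on low counts. The genes were chosen by locus as the single E1 alpha gene (*PDH-E1 ALPHA*), the 2 E1 beta genes (*PDH-E1 BETA* and AT2G34590), the 2 E2 genes (*LTA2* and *EMB3003*) and the 2 E3 genes (*LPD1* and *LPD2*), and all 7 passed the filter. RNA-Seq libraries came from embryos of homozygous *atwri1-1* plants and of wild-type (WT) plants, both in the Col-0 ecotype, with 3 biological replicates per genotype. A replicate was a pool of 25 to 30 embryos, taken 8 d after pollination. The mutant is a single allele of *WRINKLED1* (*WRI1*), which encodes an AP2-type transcription factor.

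The PDH complex oxidatively decarboxylates pyruvate and hands the acetyl group to coenzyme A. E1, made of alpha and beta subunits, carries out the decarboxylation with thiamine diphosphate, E2 transfers the acetyl group on a swinging lipoyl arm, and E3 is a flavoprotein that reoxidizes that arm. Plants hold a complex in the mitochondria, which feeds the citric acid cycle, and a separate one in the plastids, which supplies acetyl-CoA and NADH for fatty acid synthesis. In oilseed embryos the plastid complex stands between glycolysis and the fatty acid pathway, and WRI1 is known as a regulator of that conversion of sugars to oil.

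Reads counted on transcripts numbered between 8510887 and 18933870 in the libraries labelled *atwri1-1* and between 11566131 and 14449130 in WT. A further row without a transcript name held 86.6% of the total in *atwri1-1* replicate 1 and between 39.6% and 45.0% in the other 5 libraries. WT replicate 1 stood apart from its group, with a chi-square per degree of freedom of 88.7 and 78.4 against the other WT libraries, against 6.95 to 17.2 for the other pairs within a genotype. *WRI1* mRNA was higher, not lower, in the libraries labelled *atwri1-1* (log2 fold change 2.76, SE 0.161, adjusted p = 2.3e-04 in edgeR's quasi-likelihood test), so that directions here follow the labels. Of 7 embryo markers 1 (*LEC2*) was called higher in *atwri1-1*, and their summed level ranged over 3761 to 6664 CPM (TMM-normalized counts per 1000000 reads) in *atwri1-1* and 3428 to 5338 CPM in WT. The 4 seed coat markers summed to 7.35 to 13.5 CPM in *atwri1-1* and 8.76 to 15.4 CPM in WT. Of these, *BAN* and *TT12* were tested and not called, while *PER36* and *TT16*, at 0 to 9 reads per library, were not tested. The 5 endosperm markers summed to 51.2 to 196 CPM in *atwri1-1* and 48.2 to 351 CPM in WT. Most of each sum was *EPR1*, not called, at 161, 39.5 and 104 CPM in *atwri1-1*, against 344, 40.95 and 80.7 CPM in WT. *ZOU*, not called either, was at 29.9, 8.97 and 13.98 CPM in *atwri1-1*, against 6.05, 6.72 and 8.45 CPM in WT. *FWA* and *AGL62* were called higher, on 10 to 36 reads per library in *atwri1-1* and 3 to 8 in WT. *PHE1*, not tested, was at 0 in every *atwri1-1* library and had 5 reads in WT replicate 3 only. The part of other seed tissues in the results was not tested. In bulk RNA, fewer cells of a type and less RNA per cell cannot be told apart.

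All 7 plastid PDH genes were called lower in *atwri1-1*, by 5.76-fold to 23.6-fold. Calls required an adjusted p (Benjamini-Hochberg) no greater than 0.05 in edgeR's quasi-likelihood test and a log2 fold change beyond 1, by which rule 5.31% of the genes tested were called lower and 1.08% higher. For each of the 7 genes every *atwri1-1* library lay below every WT library, which held for 18.9% of the genes tested. Their median log2 fold change was -2.91, against -0.01 over all genes tested. Summed over the 7 genes, the level was 783, 819 and 862 CPM in *atwri1-1* replicates 1 to 3, against 6580, 6036 and 6523 CPM in WT replicates 1 to 3. As a share of the counted reads this was 0.0838%, 0.0877% and 0.0898% in *atwri1-1*, against 0.580%, 0.590% and 0.628% in WT. The 3 sums of *atwri1-1* were close to each other and far below the lowest WT sum.

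**Figure D1:**
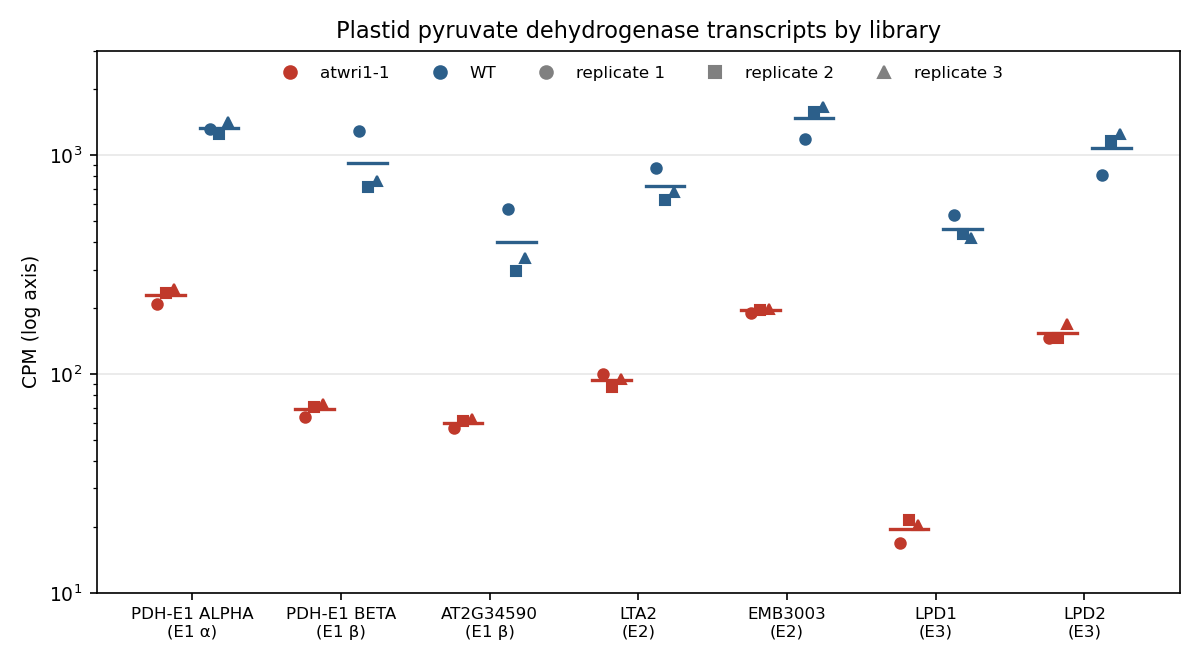
TMM-normalized CPM (log axis) of the 7 plastid PDH genes in each library, with *atwri1-1* left of WT for each gene, replicates as different symbols and horizontal bars for the means. The lowest WT library was between 4.76 and 19.5 times the highest *atwri1-1* library of the same gene. The *atwri1-1* libraries lay closer together than the WT libraries for all genes but *PDH-E1 ALPHA*, and for *LPD1* only barely (highest over lowest 1.268 in *atwri1-1* and 1.273 in WT). WT replicate 1 was the highest or the lowest WT library for all genes but *PDH-E1 ALPHA*.

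The DNA around the start of each transcript was read from TAIR10.1 because WRI1 is known to recognize a sequence called the AW Box. The AW Box was searched as CNTNG, then 7 bases of any kind, then CG, and a further motif of WRI1-bound regions, the CNC Box, as CNCCNCC, on both strands. For each gene the first AW Box match on the gene's own strand, counted from 500 bp upstream of the annotated 5′ end, is shown 5′ to 3′ with 8 bases on either side and the 14 bases of the match in capitals, so that paralogs can be compared.
PDH-E1 ALPHA: gaaaaaaaCATTGGTGTTAACGaagaaggg
PDH-E1 BETA: atttaattCTTCGATTTCTCCGcttgtcac
AT2G34590: cgcttttcCTTCGATTTCTCCGctcttctc
LTA2: aacttcaaCCTCGTCTTCTCCGtccacttc
EMB3003: cgcctgctCTTCGATAATTCCGaggagctt
LPD1: aaagcgggCTTTGAAAACTCCGcctccgtt
LPD2: catctccgCTTTGATATCTCCGcctccgct
The capitals lie at chr1:49373-49386, chr1:10586585-10586598, chr2:14570959-14570972, chr3:9460562-9460575, chr1:12590166-12590179, chr3:5790482-5790495 and chr4:9157227-9157240, in the order of the lines, on the minus strand except for *LTA2*, which is on the plus strand.

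The E1 beta paralogs carried the same 14 bases, which stood downstream of the annotated start in 4 of 27444 protein-coding genes, these paralogs included. In both the match lay in the 5′ UTR, beginning 82 bp from the annotated start of *PDH-E1 BETA* and 171 bp from that of AT2G34590, and ending 107 and 114 bases before the start codon. *LPD1* and *LPD2* shared 12 of the 14 bases, and their matches ended 98 and 93 bases before the start codon. The match of *LPD1* lay in its 5′ UTR, while the model of *LPD2* in TAIR10.1 begins at the start codon, so that its match counted as upstream. *LTA2* and *EMB3003* had their matches in the 5′ UTR, 56 and 81 bases before the start codon. Of all matches of these paralogs on the gene's own strand, the most alike pair shared 9 of the 14 bases. In that pair the match of *LTA2* was not the one shown but another, beginning 215 bp from the annotated start. All matches share the fixed letters C, T, G, C and G of the searched pattern. The match of *PDH-E1 ALPHA* began 82 bp upstream of the annotated start, with 206 bases between it and the start codon. *EMB3003* also held a match on the other strand that overlaps the one shown.

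Within 500 bp downstream of the annotated 5′ end, on either strand, an AW Box match was present in 6 of the 7 genes and in 40.02% of all protein-coding genes. Within 500 bp upstream it was present in 2 of the 7 (*PDH-E1 ALPHA* and *LPD2*) and in 18.3% of all genes. When the windows were instead set from the start codon, a choice made after the *LPD2* model was seen, all 7 genes had a match within 500 bp upstream, against 20.5% of all protein-coding genes. A CNC Box match was found downstream in 4 of the 7 genes, against 48.2% of all genes, and upstream in 2 (*LTA2* and *LPD2*), against 20.7%. In *LPD1* and *LPD2* it overlapped the 3′ end of the AW Box match shown above. These matches describe the letters in the windows, and binding to them was not measured in these embryos.

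**Figure D2:**
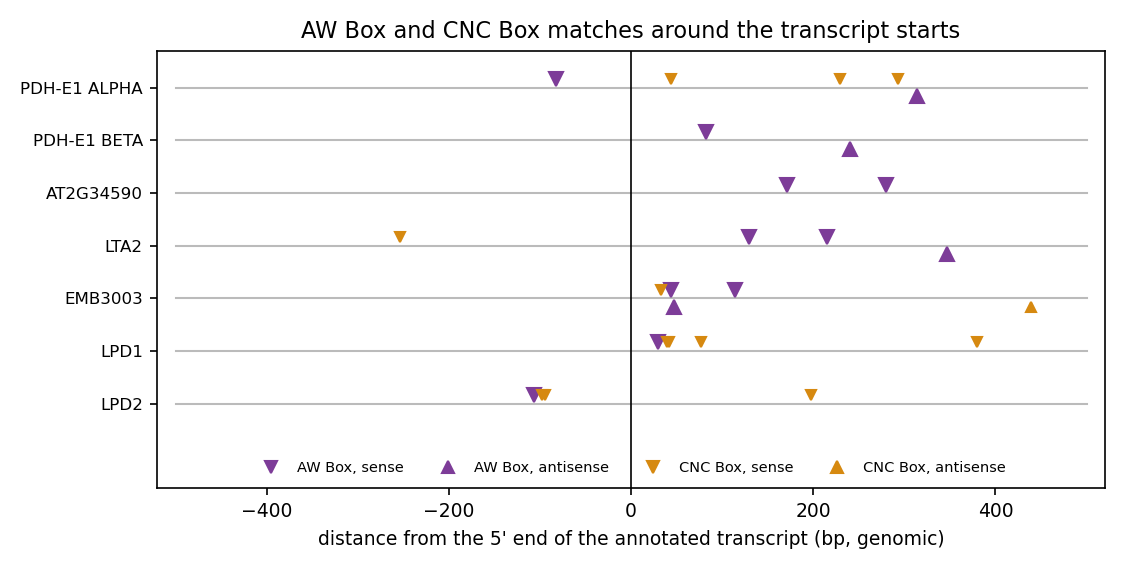
Position of AW Box and CNC Box matches within 500 bp on either side of the annotated 5′ end (0) of each of the 7 genes, in bp along the genome, with triangles pointing down for the strand of the gene and up for the other strand. The AW Box matches of *PDH-E1 ALPHA* at -82 and *LPD2* at -107 are the 2 that lie upstream of the annotated start.

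*PDH-E1 ALPHA* (AT1G01090, chromosome 1, 47234 to 49304, minus strand, 3 exons) encodes the E1 alpha subunit and is the subunit gene without a paralog. Its level was 209, 235 and 245 CPM in *atwri1-1* replicates 1 to 3, against 1320, 1243 and 1410 CPM in WT replicates 1 to 3. The groups did not overlap and the libraries within each genotype were close. The means were 230 ± 18.5 CPM in *atwri1-1* and 1325 ± 83.9 CPM in WT (SD, n = 3 each), a log2 fold change of -2.53 (SE 0.144, adjusted p = 2.3e-04 in edgeR's test). This was the smallest fall of the 7 genes over all 6 libraries, while without WT replicate 1 the log2 fold change was -2.53 for *PDH-E1 ALPHA* and -2.41 for AT2G34590. Per kb of transcript, *PDH-E1 ALPHA* was the most abundant of the 7 in every *atwri1-1* library, where it made up between 25.8% and 27.7% of their summed level, against 19.3% to 20.9% in WT.

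The E1 beta subunit is encoded by *PDH-E1 BETA* (AT1G30120, chromosome 1, 10584105 to 10586680, minus strand, 4 exons) and by AT2G34590 (chromosome 2, 14568802 to 14571143, minus strand, 5 exons), whose coding sequences were identical at 85.6% of the aligned bases. *PDH-E1 BETA* measured 63.8, 70.5 and 72.9 CPM in *atwri1-1*, against 1294, 716 and 765 CPM in WT. Its fall of 13.4-fold was the second largest among the 7 (log2 fold change -3.74, SE 0.267, adjusted p = 3.8e-04 in edgeR's test). AT2G34590 measured 56.3, 61.0 and 62.0 CPM in *atwri1-1*, against 564, 295 and 338 CPM in WT, which is 6.67-fold lower (log2 fold change -2.74, SE 0.262, adjusted p = 0.0013 in edgeR's test). For both genes the WT libraries spread widely, with replicate 1 the highest, yet the lowest of them was at least 4.76 times the highest *atwri1-1* library.

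Both genes were highest in WT replicate 1, and their ratio varied little within a genotype. AT2G34590 made up 46.8%, 46.3% and 45.9% of the E1 beta reads per kb in *atwri1-1*, against 30.3%, 29.1% and 30.6% in WT. The log2 ratio of AT2G34590 to *PDH-E1 BETA* was -0.18, -0.21 and -0.24 in *atwri1-1*, against -1.20, -1.28 and -1.18 in WT. The paralogs were thus nearly level in *atwri1-1*, and *PDH-E1 BETA* was the major one in WT. The difference of the means was 1.01 on the log2 scale (SD 0.0270 in *atwri1-1* and 0.0532 in WT, n = 3 each). The two-sided exact permutation p was 0.10, the smallest that 20 splits can give, and 0.15 after adjustment over the 3 paralog pairs, so that this design could not pass 0.05. The difference remained between 0.98 and 1.03 when any 1 library was left out.

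The E2 subunit, the acetyltransferase core, is encoded by *LTA2* (AT3G25860, chromosome 3, 9460433 to 9463013, plus strand, 6 exons) and *EMB3003* (AT1G34430, chromosome 1, 12587726 to 12590223, minus strand, 6 exons), identical at 69.0% of the aligned coding bases. *LTA2* measured 100, 87.5 and 94.6 CPM in *atwri1-1*, against 874, 622 and 682 CPM in WT (7.71-fold lower, log2 fold change -2.95, SE 0.177, adjusted p = 2.3e-04 in edgeR's test). *EMB3003*, named for the embryo lethality of its mutants, measured 191, 197 and 198 CPM in *atwri1-1*, against 1182, 1567 and 1664 CPM in WT (7.53-fold lower, log2 fold change -2.91, SE 0.177, adjusted p = 2.4e-04 in edgeR's test). The 2 genes fell by nearly the same factor, and *EMB3003* was the more abundant in all 6 libraries.

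*LTA2* made up 31.8%, 28.3% and 29.7% of the E2 reads per kb in *atwri1-1*, against 39.6%, 26.1% and 26.7% in WT. The groups overlapped, with WT replicate 1 above and the other WT libraries below all 3 *atwri1-1* libraries. The log2 ratio of *LTA2* to *EMB3003* averaged -1.23 ± 0.122 in *atwri1-1* and -1.19 ± 0.505 in WT (SD, n = 3 each), a difference of -0.04 (two-sided exact permutation p = 1). It became 0.26 without WT replicate 1 and 0.02 without *atwri1-1* replicate 2, so that no direction can be given for the E2 pair.

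The E3 subunit, dihydrolipoamide dehydrogenase, is encoded by *LPD1* (AT3G16950, chromosome 3, 5786385 to 5790525, minus strand, 16 exons) and *LPD2* (AT4G16155, chromosome 4, 9153570 to 9157133, minus strand, 15 exons), identical at 86.0% of the aligned coding bases. *LPD1* measured 16.9, 21.4 and 20.4 CPM in *atwri1-1*, against 531, 436 and 417 CPM in WT. Its means of 19.6 ± 2.37 CPM in *atwri1-1* and 461 ± 61.1 CPM in WT (SD, n = 3 each) made this the largest fall of the 7, 23.6-fold (log2 fold change -4.56, SE 0.182, adjusted p = 7.2e-05 in edgeR's test). Counted from the lowest log2 fold change, *LPD1* stood at position 59 of the 18241 genes tested. *LPD2* measured 146, 147 and 168 CPM in *atwri1-1*, against 814, 1158 and 1246 CPM in WT (6.99-fold lower, log2 fold change -2.80, SE 0.202, adjusted p = 3.8e-04 in edgeR's test). Every library of *atwri1-1* was below every WT library for both genes.

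*LPD1* made up 8.48%, 10.5% and 8.81% of the E3 reads per kb in *atwri1-1*, against 34.2%, 23.1% and 21.1% in WT. The log2 ratio of *LPD1* to *LPD2* was -3.43, -3.10 and -3.37 in *atwri1-1*, against -0.94, -1.74 and -1.90 in WT, without overlap. The minor E3 paralog of WT was thus a still smaller part of E3 in *atwri1-1*. The difference of the means was -1.77 (SD 0.178 in *atwri1-1* and 0.515 in WT, n = 3 each), with a two-sided exact permutation p of 0.10, again the smallest possible, and 0.15 over the 3 pairs. It was -1.48 without WT replicate 1, the WT library with the highest share of *LPD1*, and -1.96 without WT replicate 3. The length of *LPD2* used here is its coding length, since its model holds no UTR. An unsuitable length would shift the level of this ratio in every library alike and not the difference between genotypes.

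**Figure D3:**
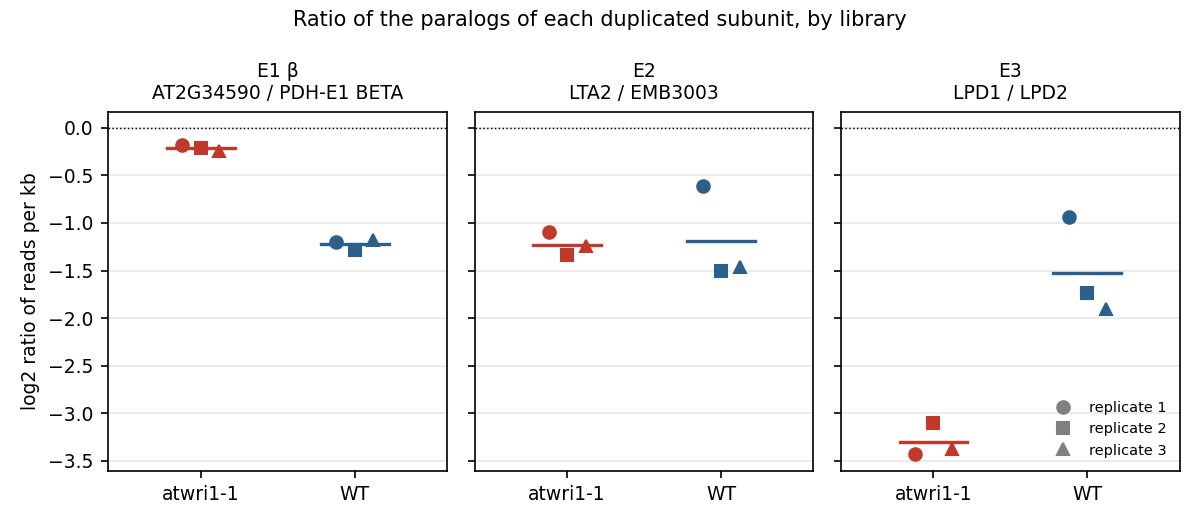
Log2 ratio of reads per kb of the 2 paralogs of E1 beta, E2 and E3 in each library, with *atwri1-1* left of WT, replicates as different symbols and bars for the means. The E1 beta ratio was higher and the E3 ratio lower in all 3 *atwri1-1* libraries than in any WT library, while the E2 ratios overlapped.

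Set on a common scale per kb of transcript, the 7 genes kept the same order in *atwri1-1*, while the order varied in WT, mostly through replicate 1. In *atwri1-1* the mean CPM per kb was 121 for *PDH-E1 ALPHA*, 106 for *EMB3003*, 90.1 for *LPD2*, 45.5 for *LTA2*, 41.4 for *PDH-E1 BETA*, 35.7 for AT2G34590 and 9.17 for *LPD1*. Each of the 3 *atwri1-1* libraries gave this same order, and only *LTA2* and *PDH-E1 BETA* overlapped as neighbours across libraries. In WT the mean CPM per kb was 800.4 for *EMB3003*, 699 for *PDH-E1 ALPHA*, 629 for *LPD2*, 554 for *PDH-E1 BETA*, 351 for *LTA2*, 238 for AT2G34590 and 216 for *LPD1*. There the 4 most abundant genes overlapped from neighbour to neighbour, as did the 3 least abundant. Over all WT libraries, only *PDH-E1 BETA* and *LTA2* were apart as neighbours. In WT replicate 1 *PDH-E1 BETA* stood at position 1 and *EMB3003* at position 3. In both WT replicates 2 and 3 *EMB3003* stood at position 1 and *PDH-E1 BETA* at position 4. WT replicates 2 and 3 differed only in the order of *PDH-E1 ALPHA* and *LPD2* and of AT2G34590 and *LPD1*.

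Added up by subunit, E1 alpha was 5.76-fold, E1 beta 10.3-fold, E2 7.59-fold and E3 8.52-fold lower per kb in *atwri1-1*. The E1 beta factor was raised by WT replicate 1, and its place above the E3 factor rests on that library. The E1 beta sum was 71.9, 78.7 and 80.7 CPM per kb in *atwri1-1*, against 1112, 605 and 660 CPM per kb in WT. The E1 alpha sum was 110, 124 and 129 CPM per kb in *atwri1-1*, against 696, 656 and 744 CPM per kb in WT. By this measure the E1 beta sum was below the E1 alpha sum in every *atwri1-1* library and in WT replicates 2 and 3, and above it in WT replicate 1. Numbers of transcripts of different genes were not measured. The E2 sum was 152, 149 and 154 CPM per kb in *atwri1-1*, against 1065, 1153 and 1235 CPM per kb in WT. The E3 sum was 93.4, 96.0 and 108 CPM per kb in *atwri1-1*, against 726, 883 and 927 CPM per kb in WT.

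WT replicate 1 differed from the other WT libraries in a way that split the paralogs. It was 1.75 times the mean of WT replicates 2 and 3 for *PDH-E1 BETA*, 1.78 times for AT2G34590, 1.34 times for *LTA2* and 1.25 times for *LPD1*. It was 0.732 times that mean for *EMB3003*, 0.677 times for *LPD2* and 0.995 times for *PDH-E1 ALPHA*. Thus 1 gene of the E2 pair and 1 of the E3 pair were high in that library while the other of each pair was low, and both E1 beta genes were high. Within *atwri1-1* the highest library was no more than 1.27 times the lowest for any of the 7. Without WT replicate 1 all 7 genes were still called lower.

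Of the mitochondrial PDH genes, fitted in the same table, none of the 9 listed was called in either direction. Over all genes tested, 5.31% were called lower and 1.08% higher, so that most genes were not called. The median log2 fold change of the 9 was 0.00. For E1 alpha the log2 fold change was -0.36 (SE 0.142) for AT1G59900 and 0.31 (SE 0.114) for *IAR4*. *MAB1*, the mitochondrial E1 beta gene, was at 63.4, 66.2 and 67.2 CPM in *atwri1-1*, against 74.3, 62.1 and 59.9 CPM in WT (log2 fold change 0.00, SE 0.130). Among the E2 genes it was -0.19 (SE 0.150) for *LTA3*, 0.38 (SE 0.144) for AT3G13930 and -0.12 (SE 0.144) for AT1G54220. For the E3 genes it was 0.41 (SE 0.319) for *mtLPD1* and 0.22 (SE 0.146) for *mtLPD2*. Adjusted p was between 0.148 and 0.990 for these 8 genes in edgeR's test. *PDK*, the kinase that phosphorylates and inactivates mitochondrial E1, had the lowest log2 fold change of the list, with 30.2, 28.5 and 27.4 CPM in *atwri1-1*, against 55.8, 39.4 and 43.7 CPM in WT. This log2 fold change of -0.69 (SE 0.162, adjusted p = 0.0387 in edgeR's test) passed the p threshold and not the fold threshold. A difference between the plastid and the mitochondrial list was not tested as such.

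In WT no mitochondrial PDH gene exceeded 58.2 CPM per kb in any library, the value of AT1G59900 in replicate 1, whereas the lowest value of a plastid PDH gene was 176 CPM per kb, that of AT2G34590 in replicate 2. In *atwri1-1* the plastid genes *LTA2*, *PDH-E1 BETA* and AT2G34590 were at 33.7 to 48.4 CPM per kb over all libraries, within the range of the mitochondrial genes there (9.37 to 62.1 CPM per kb for the subunits). *LPD1*, at 7.92 to 10.04 CPM per kb in *atwri1-1*, overlapped only AT1G54220, the least abundant mitochondrial E2 gene.

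**Figure D4:**
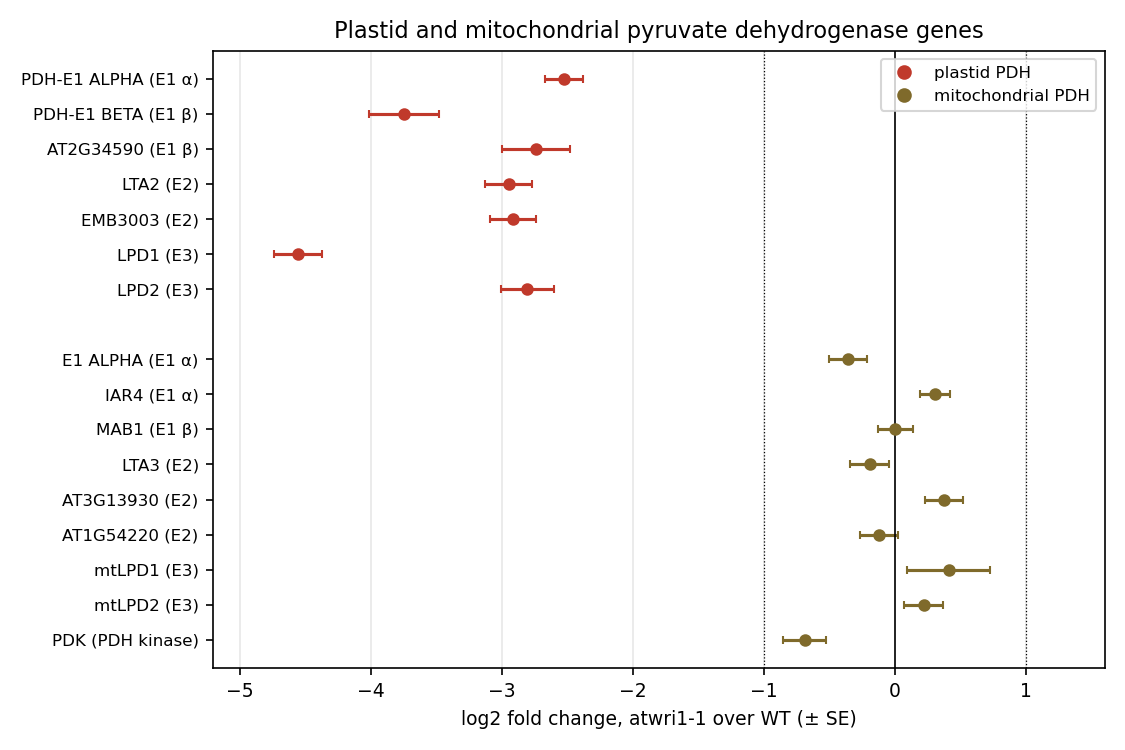
Log2 fold change (*atwri1-1* over WT, points) with its standard error (bars) for the 7 plastid PDH genes above the 9 mitochondrial PDH genes, with dotted lines at the fold threshold. The plastid genes lay between -4.56 and -2.53 and the mitochondrial genes between -0.69 and 0.41.

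The steps that bring pyruvate to the plastid complex were lower in part. Of 8 listed genes 7 were tested, 5 were called lower (*PKp1*, *PKp2* and *PKp3* of plastid pyruvate kinase, the plastid enolase *ENO1* and the phosphoenolpyruvate translocator *PPT1*), none was called higher, and the median log2 fold change was -1.69. *PKp2*, a beta subunit of plastid pyruvate kinase, had the largest fall, with 244, 250.2 and 259.5 CPM in *atwri1-1*, against 1796, 2526 and 2728 CPM in WT (log2 fold change -3.22, SE 0.200, adjusted p = 2.4e-04 in edgeR's test). *NADP-ME4*, the plastid malic enzyme, had the smallest change, with 188, 189 and 201 CPM in *atwri1-1*, against 397, 345 and 360 CPM in WT (log2 fold change -0.93, SE 0.124, adjusted p = 0.0047 in edgeR's test), short of the fold threshold. The pyruvate importer *BASS2* was the other gene not called (log2 fold change -0.98, SE 0.273, adjusted p = 0.0675 in edgeR's test). *PPT2* had too few reads to be tested.

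The lipoyl cofactor of E2 is made in plastids by octanoyltransferases and lipoyl synthase, and all 3 listed genes were called lower. *LIP1p*, the plastid lipoyl synthase, measured 15.3, 15.4 and 15.8 CPM in *atwri1-1*, against 103, 101 and 105 CPM in WT, a log2 fold change of -2.73 (SE 0.117, adjusted p = 7.7e-05 in edgeR's test). The octanoyltransferase gene *LIP2p* had a log2 fold change of -1.27 (SE 0.233, adjusted p = 0.0160 in edgeR's test), with 2.74, 3.600 and 3.38 CPM in *atwri1-1*, against 8.80, 7.70 and 7.07 CPM in WT. Its counterpart *LIP2p2* had 0, 1 and 1 reads in *atwri1-1*, against 35, 45 and 37 reads in WT. With 2 and 117 reads in all, the ratio of WT to *atwri1-1* was 65.8, with an exact 95% interval of 17.8 to 549.9 that covers counting error only.

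The next enzyme, heteromeric acetyl-CoA carboxylase, takes the acetyl-CoA to malonyl-CoA, and all 4 of its listed nuclear genes were called lower. The biotin carboxyl carrier gene *BCCP2* measured 35.8, 29.0 and 23.9 CPM in *atwri1-1*, against 1701, 1074 and 1189 CPM in WT, a log2 fold change of -5.48 (SE 0.276, adjusted p = 1.4e-04 in edgeR's test). For its paralog *BCCP1* the log2 fold change was -1.71 (SE 0.158, adjusted p = 0.0011 in edgeR's test), for the biotin carboxylase gene *CAC2* -1.47 (SE 0.223, adjusted p = 0.0076 in edgeR's test) and for the carboxyltransferase alpha gene *CAC3* -2.81 (SE 0.149, adjusted p = 1.6e-04 in edgeR's test). The median of the 4 was -2.26.

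Among 6 genes of other acetyl-CoA sources, 4 of cytosolic ATP-citrate lyase were called lower (*ACLA-1*, *ACLA-2*, *ACLA-3* and *ACLB-2*), with a list median of -1.70. *ACLA-2* had the lowest log2 fold change, with 21.3, 24.8 and 18.3 CPM in *atwri1-1*, against 199, 104 and 97.3 CPM in WT (log2 fold change -2.63, SE 0.308, adjusted p = 0.0027 in edgeR's test). *ACLB-1* had the highest log2 fold change, with 191, 164 and 183 CPM in *atwri1-1*, against 134, 142 and 139 CPM in WT (log2 fold change 0.37, SE 0.121, adjusted p = 0.105 in edgeR's test). The acetyl-CoA synthetase gene *ACS*, which provides acetyl-CoA from acetate in plastids, was not called either (log2 fold change 0.22, SE 0.127, adjusted p = 0.339 in edgeR's test).

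The mitochondrial 2-oxo acid dehydrogenases built on the same E1, E2 and E3 plan gave 3 genes called lower and none higher out of 9 listed. Over all genes tested, the shares were 5.31% lower and 1.08% higher. The list median was -0.03. All 3 were of the branched-chain complex (*DIN4* for E1 beta, *BCE2* for E2 and AT1G21400 for E1 alpha). Its other E1 alpha gene, AT5G09300 (log2 fold change -0.03, SE 0.189), and other E1 beta gene, *BCDH BETA1* (-0.21, SE 0.150), were not called. Mean levels in *atwri1-1* and WT were 152 and 155 CPM for AT5G09300, against 25.5 and 78.7 CPM for AT1G21400. *DIN4* measured 10.6, 9.91 and 9.70 CPM in *atwri1-1*, against 101, 112 and 113 CPM in WT (log2 fold change -3.43, SE 0.130, adjusted p = 7.2e-05 in edgeR's test). AT3G55410, an E1 gene of 2-oxoglutarate dehydrogenase, had the highest log2 fold change, with 137, 146 and 146 CPM in *atwri1-1*, against 70.2, 106 and 112 CPM in WT (log2 fold change 0.58, SE 0.188, adjusted p = 0.106 in edgeR's test). The members of these lists beyond the lowest and the highest were named after their values were seen.

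**Figure D5:**
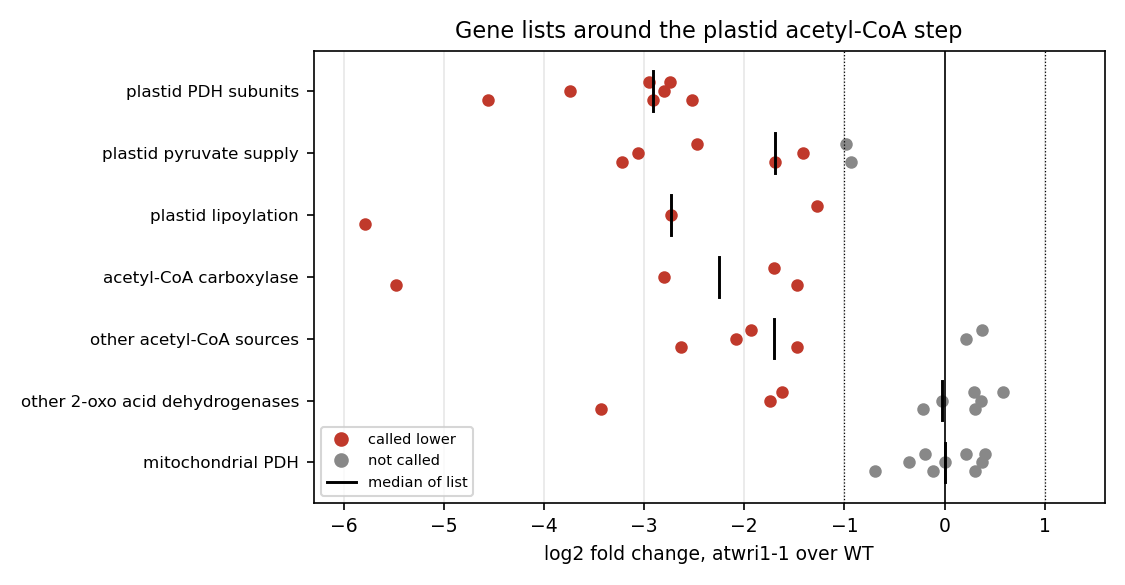
Log2 fold change (*atwri1-1* over WT) of each tested gene in the plastid PDH complex and in 6 lists around it, with red points called lower, grey points not called, a black bar at the list's median and dotted lines at the fold threshold. Every tested gene of the plastid PDH, lipoylation and acetyl-CoA carboxylase lists was called lower, and none of the mitochondrial PDH list. Of all genes tested, 5.31% were called lower.

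The genes whose libraries followed the 7 most closely were found by centring the log2 CPM of each gene on its WT mean. The mean absolute difference from the average profile of the 7 was then taken over the 6 libraries. The 12281 genes compared had at least 10 CPM on average and a read in every library. The nearest outside the complex was AT2G16595, annotated as a translocon-associated protein alpha subunit (difference 0.0531), followed by *ENO1* (0.0689), *ABCG4* (0.131), *UGT88A1* (0.147) and AT3G56130, annotated as a biotin or lipoyl attachment domain protein (0.149). Of the 7 genes themselves, *LTA2* was nearest to the average profile (0.161) and *LPD1* farthest (0.743).

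Reads of a paralog could be told apart along nearly all of each transcript. Stretches of 31 bases that occur in no other transcript made up 98.6% to 100% of the 7 transcripts. *PDH-E1 ALPHA* shared 17 such stretches with AT1G02730, *LPD1* and *LPD2* shared 16 and AT2G34590 and *PDH-E1 BETA* shared 5. The transcript of *PDH-E1 BETA* overlapped the neighbouring AT1G30110 over 18 such stretches and that of *EMB3003* overlapped AT1G34420 over 23, where the libraries do not separate the strands.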

How the data were processed

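Members and gene lists were chosen with earlier results of these data known. After removal of rRNA reads, the authors aligned reads with bowtie 0.12.7 against the primary transcripts of TAIR10, kept those with 1 best place and deposited raw counts per transcript, without strand. Their table of TMM-normalized signal (edgeR 3.10.5) was not used here, since its column names stand 1 column to the left of the values. The analysis of these counts used edgeR 4.0.16 under R 4.3.3 (filterByExpr, TMM, glmQLFit and glmQLFTest, genotype only, Benjamini-Hochberg over 18241 transcripts), a procedure tested on simulated data. SE is the absolute log2 fold change over the square root of F. CPM use TMM-scaled sizes, and 3 reads were worth 0.148 to 0.338 CPM. Transcript lengths, sequences and motifs came from RefSeq's TAIR10.1, where all 7 genes and 24169 of 24509 counted transcripts had the same transcript number. Paralog ratios were compared by an exact permutation test over samples. DESeq2 1.42.0, limma-voom 3.58.1, other scalings, filters and thresholds, a replicate block and each library left out were alternatives.

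Named were the 7 genes, *WRI1*, the mitochondrial PDH list and the endosperm markers. Lists of up to 4 genes were named whole, other lists by the lowest and highest log2 fold change, and the 5 nearest profiles were named. Same-numbered libraries deviated together (correlations 0.189, 0.240 and 0.181, against -0.239 to 0.0593 for different numbers), a pairing seen in the data only. The title of WT replicate 3 gives its number, which its description does not match. No replicates agreed within sampling noise.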

Additional observations from a re-analysis of the deposited data

How the results depend on the processing

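All 7 genes were called lower under each of the 18 alternative settings. Among these, an adjusted p of 0.01 and no fold minimum were other cutoffs on the main fit, and the latter could lose no call. When 1 library was left out, the log2 fold changes of the 7 ranged most widely for AT2G34590 (-2.91 to -2.41) and *PDH-E1 BETA* (-3.90 to -3.43). They ranged least for *PDH-E1 ALPHA* (-2.57 to -2.46). The replicate block called 935 genes lower and 224 higher and changed no call of the 7, and the paired sign-flip exact p of the paralog differences was 0.25 for E1 beta and E3, the smallest that 3 pairs allow, and 1 for E2. Counts over all genes moved more. Library size alone called 344 genes higher (the median log2 fold change of all genes was then 0.17), a filter of 10 CPM called 110, DESeq2 317, the edgeR exact test 308, glmTreat 81, an adjusted p of 0.01 72 and no fold minimum 485, against 197. Genes called lower, 968, became 613 with glmTreat and 544 at an adjusted p of 0.01. With 1 library left out, genes called lower ranged from 545 (without *atwri1-1* replicate 2) to 1087 (without WT replicate 1) and genes called higher from 74 (without *atwri1-1* replicate 3) to 364 (without WT replicate 1). The *LTA2* to *EMB3003* difference turned to 0.02 without *atwri1-1* replicate 2 and 0.26 without WT replicate 1 (range -0.19 to 0.26), and the cause was not tested. With windows set from the start codon, AW Box matches were upstream in 7 of the 7 genes (20.5% of all genes) and downstream in 3 (41.7%), and CNC Box matches upstream in 5 (26.0%) and downstream in 6 (50.01%). Within 250 bp of the annotated start a CNC Box match was upstream in 1 (10.5%). With 50-base stretches the 7 transcripts were 99.8% to 100% unique. A paralog ratio from the deposited normalized signal was not run. With 3 libraries per genotype, paralog differences cannot pass an exact test at 0.05.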

Other observations

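The 2 cruciferin genes among the embryo markers varied widely among the *atwri1-1* libraries. *CRU3*, which encodes a cruciferin storage protein, was at 0.823, 11.9 and 135 CPM in *atwri1-1* replicates 1 to 3, against 115, 120 and 299 CPM in WT. *CRA1*, another cruciferin gene, was at 249, 556 and 2270 CPM in *atwri1-1*, against 1068, 1409 and 2114 CPM in WT. Neither was called, and both were named after their values were seen. Over the same *atwri1-1* libraries, the highest and the lowest value of a plastid PDH gene differed by between 1.04 and 1.27 times, and those of the oleosin gene *OLEO1*, of the same marker list, by 1.41 times.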
